A study of Mus musculus with 6 samples.

Results

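The type I interferon response genes are a set of 41 mouse genes that cells switch on after sensing type I interferon, together with the receptor chains that receive it. They were chosen by name, and 40 of the 41 were listed in the files, among 29781 genes listed in any library. Mx2 was not analysed here. The set was followed through every class of cell in orthotopic pancreatic tumours: its share of the transcripts of each class, the cells in which it is high, and its members in mice given the antibody #44-anti-mVSIG4 set against mice given IgG. VSIG4 is a receptor of the immunoglobulin superfamily that macrophages carry and that binds complement C3 fragments.

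The 6 libraries came from 6 wild-type C57BL/6J mice, 1 tumour per mouse: 3 mice treated with #44-anti-mVSIG4 (anti-VSIG4 1, 2 and 3) and 3 treated with IgG (IgG 1, 2 and 3). Both groups carried tumours grown in the pancreas from transplanted cells of the KPC line, a mouse pancreatic cancer line, and the tumours were taken 11 days after inoculation. Antibody doses, dosing days and the age and sex of the mice were not given in the sources used here. Whole tumours were made into droplet libraries in which each captured transcript is counted once by a molecular tag (a UMI).

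Type I interferons (the interferon-alpha genes and Ifnb1) bind a receptor made of IFNAR1 and IFNAR2, and the signal reaches the nucleus through factors that include STAT2 and IRF9. The genes then switched on detect foreign nucleic acid, block translation and copying of viral RNA, modify proteins with ISG15 and raise more IRF7, which in turn raises interferon. In tumours the response is known from dendritic cells, where it supports the priming of T cells, and many of its genes also answer to interferon-gamma or to cell stress.

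The libraries held 26606234 to 47221033 UMIs, and 47603 of 47794 cell barcodes were kept, with a median of 2127 to 2703 UMIs per cell. Cells were grouped into 26 clusters without using the 40 members, and clusters were named from marker genes; 97.1% of cells had the same class when the members were used. The classes most used here were fibroblasts (899 cells), type 2 dendritic cells (cDC2, 1295), tumour/epithelial cells (2655), T cells (6110), monocyte/macrophages (11129) and neutrophils (15110), with 6 or more of their markers raised in each cluster. Another 1354 cells lay in clusters left unnamed. A group of 5578 nucleus-like cells, rich in UMIs from long genes, was also set apart without a class name. Such cells made up 0.379%, 0.201% and 4.90% of anti-VSIG4 1, 2 and 3 and 0.377%, 16.2% and 40.3% of IgG 1, 2 and 3, so that anti-VSIG4 1, anti-VSIG4 2 and IgG 1 are called the nucleus-poor libraries here and the other 3 the nucleus-rich ones. Some results are given within each kind.

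The promoters of the members are shown because the pathway ends at them. RefSeq promoters (GRCm38.p6, 250 bases before to 50 after the start) were found for 31 of the 41 genes, Rigi under its older symbol Ddx58. The letters GAAA, then any 2 bases, then GAAA, the core of the interferon-stimulated response element, lay on either strand in 16 of the 31 (51.6%), against 3.99% of 27025 genes. The 160 bases before the start are printed for the members with the widest use below and for a neighbouring pair that differs; capitals mark this element, which reads TTTC, 2 bases, TTTC where it lies on the other strand.
Isg15, chr4:156200819-156200978, minus strand: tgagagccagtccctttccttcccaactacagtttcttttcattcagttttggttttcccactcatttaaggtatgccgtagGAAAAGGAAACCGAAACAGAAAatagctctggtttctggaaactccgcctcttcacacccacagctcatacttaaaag
Ifit1, chr19:34640729-34640888, plus strand: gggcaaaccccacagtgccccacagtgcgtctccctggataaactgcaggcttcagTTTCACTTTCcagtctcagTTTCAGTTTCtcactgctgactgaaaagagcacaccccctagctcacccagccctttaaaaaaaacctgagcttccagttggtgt
Ifit3, chr19:34583369-34583528, plus strand: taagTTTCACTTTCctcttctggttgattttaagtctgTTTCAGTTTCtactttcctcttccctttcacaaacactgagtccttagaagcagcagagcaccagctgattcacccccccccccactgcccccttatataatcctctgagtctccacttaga
Ifit3b, chr19:34607797-34607956, plus strand: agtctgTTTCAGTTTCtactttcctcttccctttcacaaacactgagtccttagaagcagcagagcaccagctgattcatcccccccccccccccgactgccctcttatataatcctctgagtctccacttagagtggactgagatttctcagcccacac
Rsad2, chr12:26456453-26456612, minus strand: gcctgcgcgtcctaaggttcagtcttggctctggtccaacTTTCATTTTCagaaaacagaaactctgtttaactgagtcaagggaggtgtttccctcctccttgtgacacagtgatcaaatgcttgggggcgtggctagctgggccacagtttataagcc
Cmpk2, chr12:26469055-26469214, plus strand: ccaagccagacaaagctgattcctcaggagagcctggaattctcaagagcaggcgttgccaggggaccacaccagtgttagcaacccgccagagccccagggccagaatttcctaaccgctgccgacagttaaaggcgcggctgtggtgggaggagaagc

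Isg15 held 3 overlapping matches, from base -78 to base -57 before its start. Ifit1 and Ifit3 held 2 each, and Ifit3b held 2, one of which lies further from the start than the printed stretch. Rsad2 held 1, and its neighbour Cmpk2 none; Irf7, Irf9, Oasl1 and Oasl2 held none either, which says only that these letters are not in this window. Ifit3 and Ifit3b had 98.0% identical aligned transcript bases and Oas1a and Oas1g 97.5%, so counts of these 4 genes may be split between the copies and are uncertain.

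Among the 10 classes with at least 20 cells in every library, the module was highest in neutrophils and lowest in tumour/epithelial cells in each library. Its share of UMIs in neutrophils was 1.33%, 0.891% and 1.31% in anti-VSIG4 1, 2 and 3, against 1.64%, 1.32% and 1.34% in IgG 1, 2 and 3, the first place in all 6 libraries. In tumour/epithelial cells it was 0.208%, 0.131% and 0.145%, against 0.188%, 0.170% and 0.152%, the last place in all 6 libraries. Between them, averaged over libraries, came endothelial cells (0.785%), cDC2 (0.781%), monocyte/macrophages (0.739%), fibroblasts (0.493%), migratory dendritic cells (0.416%), T cells (0.387%), NK cells (0.249%) and plasma cells (0.224%). Endothelial cells, cDC2 and monocyte/macrophages overlapped across libraries and had no fixed order, and neither did NK and plasma cells. Plasmacytoid dendritic cells (pDC, 177 cells, 0.843%), acinar cells (0.462%) and B cells (0.222%) had too few cells in some libraries for tests.

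**Figure D1:**
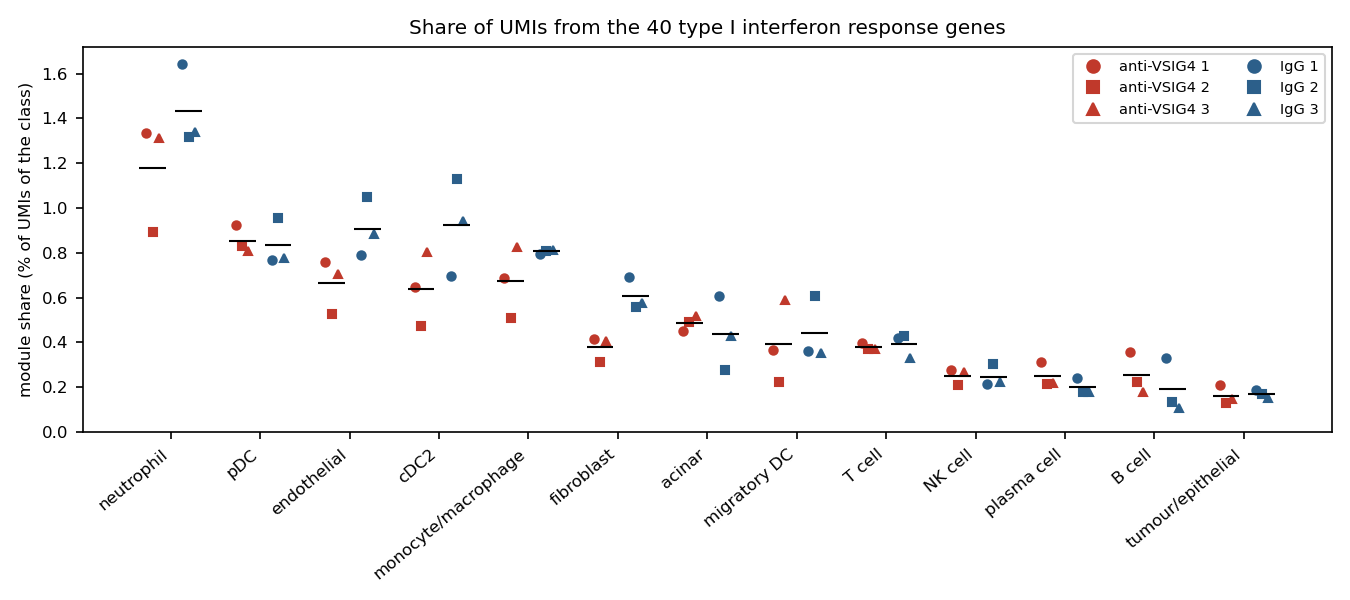
Share of all UMIs of a class that came from the 40 members (vertical axis, %) in each class (horizontal axis), 1 point per library with red for anti-VSIG4 and blue for IgG and black lines for the group means. Neutrophils lie highest, between 0.891% and 1.64%, and in fibroblasts and endothelial cells every anti-VSIG4 point lies below every IgG point.

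The first place of the neutrophils turned on Isg15. Isg15, the ubiquitin-like protein that is joined to other proteins and also secreted, gave 54.0% of the module UMIs of neutrophils and 30.4% of those of all cells; these are shares of UMIs, not levels per gene length. When Isg15 was left out, an alternative chosen after seeing the data, neutrophils ranked 1, 2 and 4 in anti-VSIG4 1, 2 and 3 and 1, 4 and 4 in IgG 1, 2 and 3. Endothelial cells then had the highest mean share of the 10 classes, 0.681%, with 0.598% in neutrophils, and tumour/epithelial cells stayed last in all 6 libraries. The pDC, outside the 10 classes, stood at 0.808%. Ifitm3 and Bst2 gave 48.1% and 13.6% of the module UMIs of endothelial cells. With Isg15 kept and Ifitm3, Bst2, Ifnar1 and Ifnar2 left out, neutrophils ranked 1 in all 6 libraries and endothelial cells 5 or 6. Without Isg15 monocyte/macrophages had 0.444% to 0.576% in anti-VSIG4 libraries, against 0.580% to 0.678% in IgG libraries, without overlap. For cDC2 the shares were 0.405% to 0.557%, against 0.590% to 0.660%, also apart. Fibroblasts and endothelial cells were lower without overlap too, and the other classes overlapped, with no test.

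Classes differed in which members gave most of their module UMIs. Ifitm3, a membrane protein that blocks virus entry and is also made without interferon, gave 48.1% in endothelial cells, 42.8% in fibroblasts, 39.5% in cDC2, 29.5% in monocyte/macrophages and 17.2% in tumour/epithelial cells, the largest part in each of these 5 classes. Ifi27l2a, a mitochondrial interferon-induced protein, led in T cells with 41.3% and in B cells with 35.6%. Isg15 led in NK cells (31.0%) and migratory dendritic cells (40.3%). Bst2, which tethers budding virus particles to the cell and is used as a surface marker of pDC in the mouse, led in pDC with 51.8% and in plasma cells with 20.2%. In tumour/epithelial cells Bst2 followed Ifitm3 with 15.6%, ahead of Isg15 with 14.4%.

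By gene and among the 10 classes, 18 of the 40 members had their highest mean level in neutrophils, 8 in endothelial cells, 7 in migratory dendritic cells, 3 in monocyte/macrophages and 1 each in T cells, NK cells, plasma cells and cDC2. Levels below are in CPM, the UMIs of a gene scaled to a fixed total of UMIs for each class and library, as means over the 6 libraries, and are compared only between the 10 classes. The pDC, too few for this ranking, had higher means for some members, such as Ifnar2 (511 CPM), Ifnar1 (215 CPM), Irf7 (242 CPM) and Bst2 (4355 CPM). The receptor chain Ifnar2 was highest in monocyte/macrophages (183 CPM) and Ifnar1 in NK cells (90.4 CPM); Ifnar2 was lowest in tumour/epithelial cells (75.2 CPM) and Ifnar1 in plasma cells (25.1 CPM). Of the transcription factors, Irf7 stood at 115 CPM in neutrophils and 110 CPM in monocyte/macrophages, Irf9 led in neutrophils (39.1 CPM) and Stat2 in migratory dendritic cells (53.7 CPM). Each of the 10 classes thus held UMIs of both receptor chains and of all 3 factors.

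The nucleic acid sensors were spread over several classes. Ifih1, a sensor of long double-stranded RNA, led in migratory dendritic cells (27.8 CPM), Rigi, a sensor of short double-stranded RNA ends, in neutrophils (36.8 CPM), and Dhx58, their regulator, in monocyte/macrophages (21.9 CPM). Zbp1, a sensor of Z-form nucleic acid, led in plasma cells (200.4 CPM) with neutrophils next (191 CPM). The DNA-binding Ifi204 led in monocyte/macrophages (69.2 CPM) and its relative Ifi209 in migratory dendritic cells (63.0 CPM). Migratory dendritic cells also led for Herc6, a ligase for ISG15, at 29.0 CPM, for Usp18, which removes ISG15 and dampens the receptor, at 23.4 CPM, for Oasl1, which restrains IRF7 translation, at 197 CPM, and for the antiviral GTPase Mx1, at 21.8 CPM.

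The RNA-binding and nucleotide-targeting effectors were highest mostly in neutrophils: Rsad2 (viperin, 202 CPM), Oasl2 (228 CPM), Oas2 (43.6 CPM), Oas3 (101 CPM), the exonuclease Isg20 (387 CPM), Ifit3 (36.6 CPM), Ifit3b (17.7 CPM) and Oas1g (17.9 CPM). Oas1a led in cDC2 (48.7 CPM), and Ifit1, Ifit2 and Cmpk2 led in endothelial cells, at 107, 32.3 and 13.0 CPM. Slfn1 and Slfn4, of a family that restrains cell growth, had the largest ratios of the first to the second class among the 18 members highest in neutrophils. Slfn1 stood at 666 CPM there with T cells next at 85.0 CPM, and Slfn4 at 153 CPM with NK cells next at 16.4 CPM. Their relative Slfn5 led in endothelial cells (165 CPM) and Slfn8 in neutrophils (19.6 CPM). Neutrophils also led for Parp14 (138 CPM), Trim30a (139 CPM) and the receptor chaperone Rtp4 (149 CPM), and endothelial cells for Xaf1 (125 CPM), Ifi44 (41.3 CPM), Bst2 (1041 CPM) and Ifitm3 (3778 CPM).

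**Figure D2:**
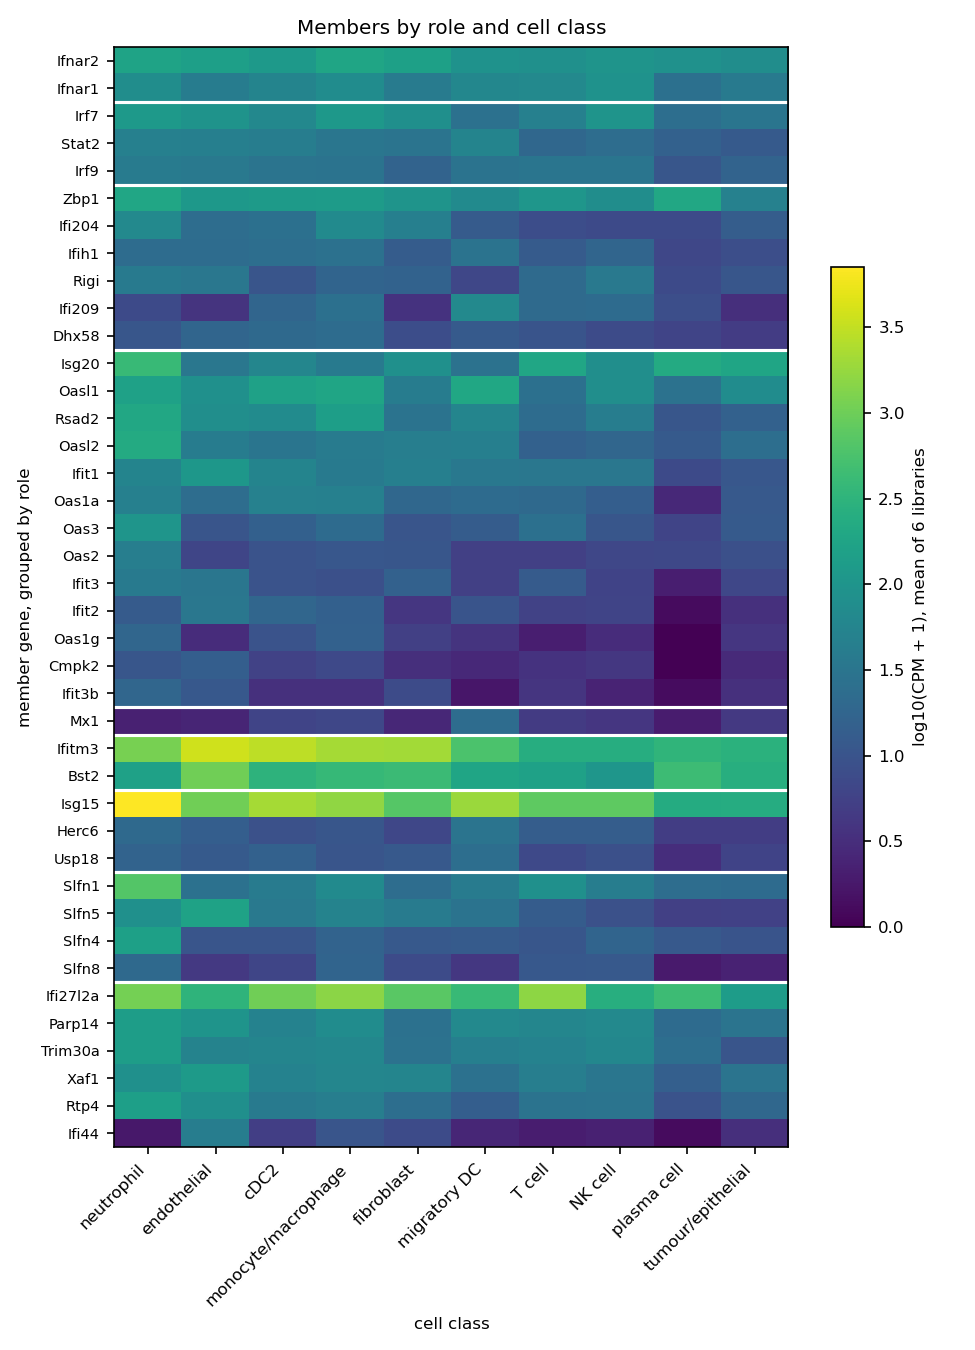
Mean level of each of the 40 members over 6 libraries, as log10(CPM + 1) in colour, by class (columns, in order of module share) and grouped by role (rows, white lines between roles: receptors, signal transducers and transcription factors, nucleic acid sensors, RNA-binding and nucleotide-targeting effectors, Mx GTPases, membrane effectors, ISG15 system, Schlafen family, others). Isg15 is brightest in neutrophils at 7086 CPM and Ifitm3 in endothelial cells at 3778 CPM.

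In droplet libraries free RNA gives UMIs in cells that do not express a gene, and neutrophil markers in other classes show its size. The summed level of 8 neutrophil markers in tumour/epithelial cells was 6.15%, 2.69% and 2.23% of that in neutrophils in anti-VSIG4 1, 2 and 3, and 3.53%, 1.84% and 1.09% in IgG 1, 2 and 3. Isg15 stood in tumour/epithelial cells at 4.96%, 4.05% and 3.00% of its neutrophil level, and at 3.29%, 3.39% and 2.19% in the IgG libraries. The 2 sets of values were alike in size, below the markers in anti-VSIG4 1 and IgG 1 and above them in the other 4 libraries. In plasma cells Isg15 was at 7.20%, 2.26% and 2.10%, against 4.204%, 2.65% and 1.65%, and the markers at 7.27%, 3.51% and 2.07%, against 4.64%, 2.41% and 1.39%. No expression is read from Isg15 in these 2 classes, since both sets of values lie close together. In monocyte/macrophages and cDC2 Isg15 was at 14.0% to 31.2% and at 12.6% to 57.9% of its neutrophil level, above the marker share in all 6 libraries. In NK cells it was just below the marker share in anti-VSIG4 1 (11.36%, against 11.65%) and IgG 1 (4.74%, against 4.87%). In the other libraries it was above, at 8.87% to 15.9%, against 3.03% to 5.99%. In T cells it was above in all 6 libraries, narrowly in anti-VSIG4 1 (8.89%, against 7.76%) and IgG 1 (7.53%, against 6.64%).

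Cells with a high module share were counted after each cell was thinned to 1000 UMIs, to count over 1 depth. A cell was called high with at least 10 of 1000 UMIs from 36 members (without Ifnar1, Ifnar2, Ifitm3 and Bst2), which is a range of a score and not a cell type. Of 47603 cells 8903 were high, and 5940 of them were neutrophils and 1745 monocyte/macrophages. Near the threshold lay 2364 cells with 8 or 9 such UMIs and 1611 with 10 or 11, while 3756 had 20 or more and the highest had 170. High neutrophils had a median of 1555 UMIs before thinning and other neutrophils 1602. In monocyte/macrophages these medians were 3595 and 4656.5 UMIs and in tumour/epithelial cells 2439 and 6358, so that high cells there were shallower.

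The share of high cells in neutrophils was 42.2%, 26.9% and 37.3% in anti-VSIG4 1, 2 and 3, against 46.4%, 37.6% and 40.1% in IgG 1, 2 and 3; the groups overlapped, and anti-VSIG4 2 was lowest. In monocyte/macrophages it was 13.6%, 6.05% and 23.5%, against 17.999%, 18.5% and 16.9%, with the lowest and the highest library both in the anti-VSIG4 group. T cells ranged over 6.96% to 7.01% in anti-VSIG4 libraries and 6.17% to 8.02% in IgG libraries. In cDC2 the shares were 7.44%, 2.02% and 15.3%, against 9.44%, 31.1% and 19.8%, again overlapping. Fibroblasts had 1 of 82, 1 of 183 and 0 of 54 high cells in anti-VSIG4 1, 2 and 3, against 13 of 208, 6 of 142 and 5 of 230 in IgG 1, 2 and 3, without overlap of the shares; the groups overlapped at a threshold of 5 or of 20 UMIs. A count of 0 of 54 cells allows a share of up to 5.56%. Endothelial cells had 3 of 56, 3 of 81 and 2 of 42, against 4 of 56, 8 of 110 and 6 of 109, also without overlap but on few cells. At 5 UMIs the endothelial groups overlapped, and at 20 UMIs the mean was higher in anti-VSIG4 libraries, 1.39%, against 0.912% in IgG libraries. None of 304 plasma cells was high, which allows a share of up to 0.987%, for counting error only.

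**Figure D3:**
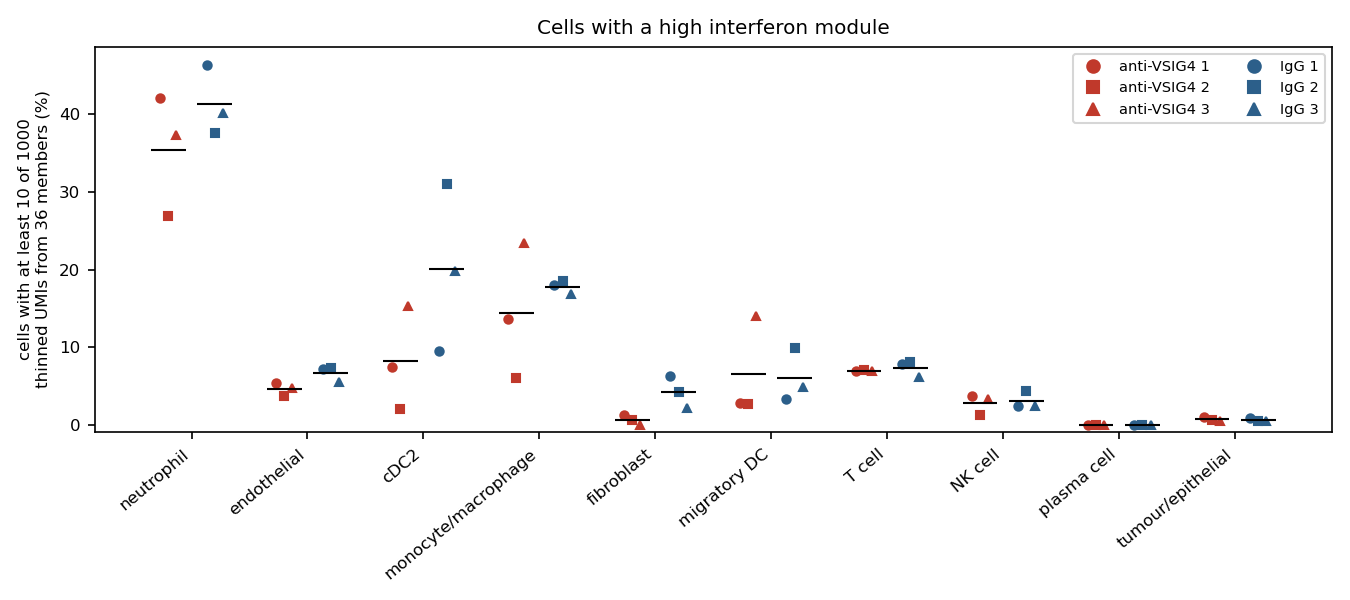
Percent of cells of each of 10 classes (horizontal axis) with at least 10 of 1000 thinned UMIs from 36 members (vertical axis), 1 point per library with red for anti-VSIG4 and blue for IgG and black lines for group means. Neutrophils reach 26.9% to 46.4% and monocyte/macrophages 6.05% to 23.5%, while fibroblasts stay at or below 6.25%.

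High cells were not spread evenly within a class, and the clusters below were built without the members. Among neutrophils, 69.3% of the 4809 cells of the cluster led by Retnlg and Cxcr2 were high, with 34.8% in the cluster led by Il23a and Hcar2 and 17.7% in the cluster led by Igfbp6 and Mmp9. The 36 members gave 1.75%, 1.39% and 2.21% of the UMIs of the Retnlg and Cxcr2 cluster in anti-VSIG4 1, 2 and 3, against 2.41%, 2.48% and 2.26% in IgG 1, 2 and 3, without overlap and with no test. Among monocyte/macrophages, 33.6% of the cells of the cluster led by H2-Ab1 and Aif1 were high, and 5.59% of those of the cluster led by Apoe and C1qa. The H2-Ab1 and Aif1 cluster held 551, 396 and 1093 of 2357, 2067 and 1777 monocyte/macrophages in anti-VSIG4 1, 2 and 3. In IgG 1, 2 and 3 it held 697, 560 and 470 of 2239, 1629 and 1060. The Retnlg and Cxcr2 cluster held 1744, 377 and 605 of 3843, 1336 and 2882 neutrophils in anti-VSIG4 1, 2 and 3. In IgG 1, 2 and 3 it held 967, 660 and 456 of 2206, 3229 and 1614. The part of this make-up in the class values was not tested. The T cell cluster with Foxp3 among its leading genes, a marker of regulatory T cells, had 17.1% high cells, and the larger cluster with Cd8b1 6.71%. The share of the 36 members was also lower without overlap in the Cd8b1 cluster, at 0.331% to 0.349%, against 0.364% to 0.411%. So it was in the T cell cluster with Xcl1 (0.202% to 0.217%, against 0.218% to 0.259%) and in fibroblasts. In the Foxp3 cluster and the other neutrophil and monocyte/macrophage clusters named here the groups overlapped.

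High cells held many members at once, as the choice of cells implies, and also genes outside the set. In neutrophils the non-member genes with the highest ratio of high to other cells, taken as the lowest of 6 libraries, were the interferon-induced GTPases and relatives Ifi47 (4.76-fold), Gbp2 (3.52), Irgm1 (3.38) and Gbp5 (3.36), the DNA exonuclease Trex1 (4.75), the chemokine Cxcl10 (4.03), the nucleotide hydrolase Samhd1 (3.05), the regulator Trafd1 (2.68), and Gm13822 and Or2v1 (4.02 and 3.89). In monocyte/macrophages they were Ifi213 (3.03), Cxcl10 (2.92), Trex1 (2.83), Ms4a4c (2.73), Gm13822 (2.62), the monocyte markers Ly6c2 (2.51) and Plac8 (2.36), Rhov (2.31), Daxx (2.25) and Dmkn (2.24). In T cells Cxcl10 (2.43), AW011738 (2.15), Igtp (1.95) and Samhd1 (1.95) came first. The 17 high tumour/epithelial cells were led by Tyrobp and Il1r2, genes of myeloid cells, at ratios of at least 5.92 and 3.88.

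Across the 60 sums of 10 classes and 6 libraries, the 10 non-member genes with the highest Spearman correlation with the module share, of 5501 compared, were Gm45717 (0.867), Ifitm2 (0.857), Myd88 (0.849), Socs3 (0.849), Csrnp1 (0.844), Tbkbp1 (0.805), Plekho2 (0.7997), Timm10b (0.798), Gngt2 (0.797) and Bst1 (0.791). Myd88 is a toll-like receptor adaptor and Socs3 an inhibitor of cytokine signalling. The 60 points share libraries and classes, so this is a description of which classes hold these genes.

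The ligands were rare. Ifnb1 had 466 UMIs in 175 of 47603 cells. Of these UMIs 63.5% lay in 91 monocyte/macrophages, 0.818% of that class at a median of 4475 UMIs. The share of cells with an Ifnb1 UMI was 0.661% in endothelial cells and 0.556% in fibroblasts, at medians of 5173 and 4817 UMIs. It was 0.226% in tumour/epithelial cells, at 6300 UMIs, and 0.0662% in neutrophils, at 1582 UMIs. Endothelial cells, fibroblasts and neutrophils had at most 1 such UMI per cell, and monocyte/macrophages up to 26. Ifnb1 UMIs in monocyte/macrophages numbered 42, 7 and 72 in anti-VSIG4 1, 2 and 3 and 19, 147 and 9 in IgG 1, 2 and 3, which overlap widely. Another 52 UMIs lay in 14 cDC2, and 25 of the 30 UMIs of tumour/epithelial cells lay in 1 cell of anti-VSIG4 3. The interferon-alpha genes listed had at most 3 UMIs each. Ifnl2, a type III interferon, had 60 UMIs in 8 cells, 43 of them in 3 cDC2 and 14 in 2 pDC, and the type II interferon Ifng had 2554 UMIs, most of them in T cells (1388) and NK cells (510).

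Monocyte/macrophages with an Ifnb1 UMI had a module share of 1.54%, against 0.733% in those without. The share was higher in the Ifnb1-positive cells of all 6 libraries, at 0.663% to 2.49%, against 0.506% to 0.810%. These cells were also deeper, with a median of 9359 UMIs against 4461.5, and 5 cells of each of 2 libraries stand behind some values. In cDC2 the 14 positive cells had 2.03%, against 0.725% in the others.

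The comparison of anti-VSIG4 with IgG tumours asked in which classes the members differ between treatments. With edgeR and a false discovery rate of 0.05 over all genes, no member passed in any of the 10 classes. The median log2 change of the members was furthest below 0 in fibroblasts and lay nearer to 0 in the other 9 classes. P-values measure the spread between 3 mice per group.

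**Figure D4:**
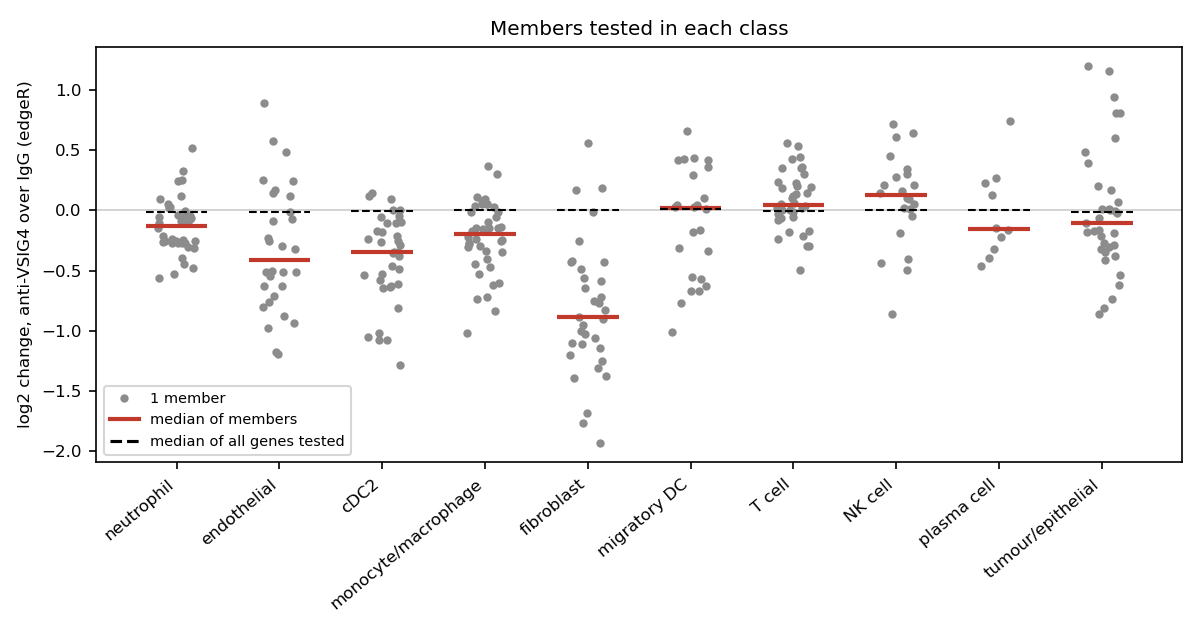
Log2 change of anti-VSIG4 over IgG (vertical axis, edgeR) for each member tested in each class (horizontal axis), 1 grey point per member, with the median of the members in red and of all genes tested in dashed black. The red line, at -0.89 in fibroblasts, -0.41 in endothelial cells and -0.35 in cDC2, lies lowest in these 3 classes, and the dashed line lies within 0.02 of 0 in all 10 classes.

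Fibroblasts had the largest median difference of the 10 classes. Of 33 members tested, 30 were lower and 3 higher, with a median log2 change of -0.89, against 0.01 over all 9611 genes. By edgeR 0 members passed, with 0% of all genes called; at an unadjusted p under 0.05 there were 15 members, all lower, against 6.16% of all genes, and DESeq2 called 2, Isg15 and Oasl1, against 0.364% of all genes. After TMM scaling (edgeR's correction for make-up), 15 members had every anti-VSIG4 library below every IgG library, against 5.84% of all genes: Isg15, Oasl1, Oasl2, Parp14, Irf7, Irf9, Ifih1, Zbp1, Ifit1, Ifitm3, Bst2, Usp18, Slfn5, Slfn8 and Xaf1. In unscaled CPM Ifit1 and Bst2 overlapped. After TMM scaling 0 members were higher without overlap, against 4.98% of all genes. The module share was 0.413%, 0.312% and 0.408% in anti-VSIG4 1, 2 and 3, against 0.693%, 0.556% and 0.578% in IgG 1, 2 and 3.

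Oasl1 had the smallest p in fibroblasts. It stood at 24.9, 12.2 and 23.4 CPM in anti-VSIG4 1, 2 and 3, against 47.5, 57.9 and 79.5 CPM in IgG 1, 2 and 3 (log2 change -1.68 ± 0.31 (SE), edgeR adjusted p = 0.309). Isg15 stood at 430, 224 and 524 CPM, against 1016, 1020 and 946 CPM (-1.39 ± 0.29, adjusted p = 0.318), and Parp14, an ADP-ribosyltransferase, at 21.0, 14.0 and 11.7 CPM, against 41.4, 39.5 and 32.2 CPM (-1.31 ± 0.30, adjusted p = 0.414). In each of these 3 genes the highest anti-VSIG4 library lay below the lowest IgG library. Isg15 varied little among the IgG libraries, 994 ± 41.8 CPM, and more among the anti-VSIG4 ones, 393 ± 154 CPM (SD, n = 3 each).

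The transcription factors and sensors in fibroblasts leaned the same way at lower counts. Irf7 was at 67.9, 39.5 and 53.8 CPM in anti-VSIG4 1, 2 and 3, against 158, 68.4 and 98.9 CPM in IgG 1, 2 and 3, the groups just apart (-1.06 ± 0.32, edgeR adjusted p = 0.600). Stat2 was at 12.4, 10.9 and 38.6 CPM, against 31.0, 35.1 and 49.4 CPM, with anti-VSIG4 3 inside the IgG range. Ifih1 was at 7.65, 6.08 and 11.7 CPM, against 17.6, 14.2 and 17.2 CPM, and Usp18 at 7.65, 5.47 and 7.02 CPM, against 20.7, 11.1 and 14.5 CPM, both without overlap. Ifit1 was at 38.3, 9.73 and 9.36 CPM, against 125, 35.1 and 49.4 CPM, and Ifit3 at 22.0, 4.26 and 1.17 CPM, against 30.4, 8.63 and 22.0 CPM; IgG 1 was highest for both and anti-VSIG4 1 overlapped the IgG libraries. Rsad2 was at 39.2, 9.73 and 11.7 CPM, against 49.3, 19.7 and 38.7 CPM, also overlapping.

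The receptor chains did not follow this pattern in fibroblasts. Ifnar1 stood at 35.4, 34.7 and 49.1 CPM in anti-VSIG4 1, 2 and 3, against 28.0, 36.99 and 51.6 CPM in IgG 1, 2 and 3 (log2 change -0.01 ± 0.27), and Ifnar2 at 155, 103 and 161 CPM, against 111, 150 and 226 CPM (-0.25 ± 0.27). Ifitm3, the member with most UMIs there, was at 1732, 1574 and 2002 CPM, against 2155, 2315 and 2459 CPM (-0.42 ± 0.19), and Bst2 at 330.0, 224 and 482 CPM, against 527, 447 and 510.4 CPM (-0.56 ± 0.27). The 3 members that were higher were Slfn1 (0.18), Slfn4 (0.56) and Trim30a (0.17), and neutrophils had the highest level of all 3 among the 10 classes. None of the members in this paragraph passed the false discovery rate.

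**Figure D5:**
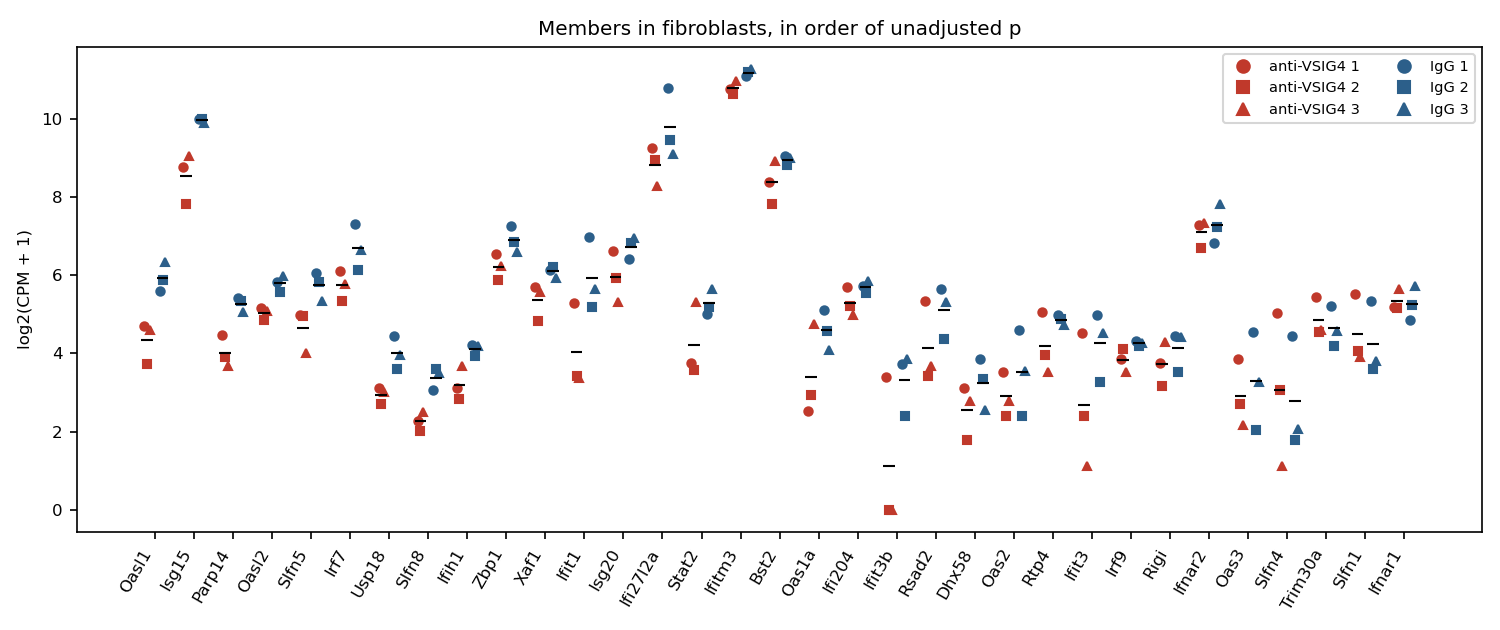
Level of the 33 members tested in fibroblasts (vertical axis, log2(CPM + 1)), in order of unadjusted p from the left, 1 point per library with red for anti-VSIG4 and blue for IgG and black lines for group means. For Oasl1, Isg15 and Parp14, at the left, all 3 red points lie below all 3 blue points.

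Other things moved with treatment in this class. Fibroblasts numbered 82, 183 and 54 cells in anti-VSIG4 1, 2 and 3 and 208, 142 and 230 in IgG 1, 2 and 3, with 854959 to 1644437 UMIs, against 1622209 to 1861173. The 8 neutrophil markers summed to 953 to 3838 CPM in anti-VSIG4 libraries, against 371 to 2477 CPM in IgG libraries, and 1, Ly6g, was at 0 in a library. Isg15 was at 6.99%, 5.26% and 6.57% of its neutrophil level, against 12.2%, 12.3% and 12.6%, while the neutrophil markers were at 6.98%, 3.02% and 2.33%, against 5.55%, 2.67% and 1.09%. The 11 monocyte/macrophage markers summed to 766 to 1119 CPM, against 335 to 779 CPM, and none was at 0. The 7 tumour/epithelial markers summed to 219 to 286 CPM, against 298 to 1321 CPM, with Krt7 and Krt18 lower without overlap and none at 0. Of the 7 fibroblast markers, Col1a1 and Col1a2 were higher without overlap and Dpt, a marker of quiescent fibroblasts, was at 228, 164 and 215 CPM, against 526, 667 and 376 CPM. The part of these markers and of the make-up of the fibroblasts in the lower members was not tested.

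In the nucleus-poor libraries (anti-VSIG4 1 and 2, IgG 1) the members had a median log2 change of -1.18 and in the nucleus-rich ones (anti-VSIG4 3, IgG 2 and 3) of -0.76. These fits have 2 libraries against 1 and assume that the lone library varies like the pair, so they are given as values. Oasl1 and Ifit1, named here after their values were seen, stood at -1.46 ± 0.40 and -2.52 ± 0.42 in nucleus-poor libraries and at -1.59 ± 0.45 and -2.21 ± 0.56 in nucleus-rich ones. Leaving out IgG 1, the library with the highest levels of Irf7, Ifit1 and Ifi27l2a, gave a median of -0.58, and Ifi27l2a itself was at 608, 490 and 306 CPM in anti-VSIG4 1, 2 and 3, against 1767, 694 and 548 CPM in IgG 1, 2 and 3.

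Monocyte/macrophages had small median differences that turned on single libraries. Their module share overlapped between groups, and only when Isg15 was left out was it lower without overlap, as given above. Of 40 members 30 were lower and 10 higher, with a median log2 change of -0.20, against 0.00 over 12916 genes. The median was -0.02 without IgG 1, -0.04 without anti-VSIG4 2 and 0.03 in the nucleus-rich libraries alone. By edgeR 0 members passed, with 0% of all genes called; 5 members had an unadjusted p under 0.05, all lower, against 4.08% of all genes, and DESeq2 called 0, against 0.178% of all genes. Ifih1 had the smallest p, at 24.4, 16.2 and 21.2 CPM in anti-VSIG4 1, 2 and 3, against 27.1, 34.5 and 31.7 CPM in IgG 1, 2 and 3 (-0.62 ± 0.21, edgeR adjusted p = 1.00). Irf7 was at 103, 73.1 and 95.2 CPM, against 148, 103 and 138 CPM (-0.53 ± 0.19), and Ifit1 at 36.97, 15.4 and 24.4 CPM, against 54.5, 71.6 and 26.2 CPM (-1.02 ± 0.42). After TMM scaling, Ifih1, Irf7 and Parp14 had every anti-VSIG4 library below every IgG library, against 4.33% of all genes, so that 3 of 40 is near the background, and 0 were higher without overlap, against 4.78%.

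Isg15 in monocyte/macrophages separated the kinds of library and not the treatments. The cluster make-up of this class, given above, also differed between libraries, and its part in these levels was not tested. It was at 1112, 627 and 2492 CPM in anti-VSIG4 1, 2 and 3, against 1170.5, 2293 and 1950.2 CPM in IgG 1, 2 and 3, with the 3 nucleus-poor libraries below the 3 nucleus-rich ones. In cDC2 the same split held, at 1223, 661 and 2447 CPM, against 1053, 4798 and 2799 CPM. Oasl1 in monocyte/macrophages was at 151, 39.2 and 217 CPM, against 148, 311 and 217 CPM, Rsad2 at 160, 62.6 and 101 CPM, against 178, 203 and 142 CPM, and Stat2 at 32.3, 13.8 and 37.8 CPM, against 37.4, 30.6 and 36.2 CPM, with anti-VSIG4 2 lowest in all 3. The receptor chain Ifnar2 ranged over 124 to 206 CPM, against 149 to 249.2 CPM, and Ifnar1 over 55.3 to 90.3 CPM, against 54.6 to 84.7 CPM. Bst2 and Ifitm3 also overlapped, at 305 to 413 CPM, against 350 to 448 CPM, and at 1638 to 2259 CPM, against 2233 to 2518 CPM.

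In neutrophils the direction of the members turned on single libraries. Of 38 members tested, 29 were lower and 9 higher, with a median of -0.13, against -0.02 over 10831 genes. Without IgG 1 25 were higher and 14 lower (median 0.10), without anti-VSIG4 2 19 were higher and 20 lower, and without anti-VSIG4 1 37 of 38 were lower (-0.38). In the nucleus-rich libraries alone 24 were higher (0.07). By edgeR 0 members passed, with 0.00923% of all genes called, 0 had an unadjusted p under 0.05, against 5.37% of all genes, and DESeq2 called 0, against 0.0369% of all genes. No member was lower without overlap after TMM scaling, against 5.63% of all genes, or higher, against 5.78%. In unscaled CPM Rigi and Parp14 were lower without overlap. The share of all genes in unscaled CPM is not given here, so this is not read as a result about the members. The share of the 36 members without Ifnar1, Ifnar2, Ifitm3 and Bst2 was also lower without overlap, at 0.777% to 1.17% in anti-VSIG4 libraries and 1.18% to 1.45% in IgG libraries, and so were high cells at a threshold of 20 UMIs, at 11.8% to 19.99%, against 20.6% to 27.4%. Isg15 was at 6159, 4253 and 7975 CPM in anti-VSIG4 1, 2 and 3, against 8361, 8284 and 7484 CPM in IgG 1, 2 and 3, overlapping through anti-VSIG4 3. The 3 members with the smallest p were Oas1a (-0.53 ± 0.32), Oas1g (-0.56 ± 0.35) and Bst2 (-0.27 ± 0.21), at edgeR adjusted p of 0.881, 0.882 and 0.884. Irf7 was at 133, 87.6 and 79.7 CPM, against 177, 83.5 and 127 CPM, Rsad2 at 255, 119 and 141 CPM, against 438, 117 and 139 CPM, and Ifit1 at 90.4, 36.6 and 42.5 CPM, against 94.9, 31.2 and 31.6 CPM. For these 3 genes replicate 1 of each group was the highest library of its group, and the spread within a group was wider than the difference between groups.

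Tumour/epithelial cells had the lowest module share of the 10 classes, and their members had no common direction. Of 35 members 21 were lower and 14 higher, with a median of -0.10, against -0.01 over 12012 genes. Without anti-VSIG4 1 28 of 35 were lower (-0.39), and without anti-VSIG4 2 22 of 39 were higher (0.06). By edgeR 0 members passed, with 0% of all genes called, 3 had an unadjusted p under 0.05, against 4.02% of all genes, and DESeq2 called 0, against 0.0333% of all genes. Parp14 was at 25.4, 13.3 and 21.8 CPM in anti-VSIG4 1, 2 and 3, against 42.2, 36.8 and 33.4 CPM in IgG 1, 2 and 3 (-0.86 ± 0.26, edgeR adjusted p = 1.00), Oas1a at 8.59, 6.01 and 9.01 CPM, against 16.5, 14.2 and 11.8 CPM, and Bst2 at 257, 178 and 231 CPM, against 295, 289 and 293 CPM; these 3 were lower without overlap, against 4.21% of all genes. Rsad2 was the 1 member higher without overlap, against 3.59% of all genes, at 18.9, 19.9 and 20.5 CPM, against 16.8, 7.11 and 4.28 CPM (1.20 ± 0.47). Slfn1, among the 3 lowest p of members reaching 20 CPM in a group, was at 49.4, 19.6 and 15.02 CPM, against 24.7, 9.68 and 6.56 CPM, in the same order of the 6 libraries as the neutrophil markers above; the part of free RNA in this was not tested.

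The remaining classes had 0 members called. By edgeR 0.0151% of all genes were called in endothelial cells and 0% in cDC2, T cells, NK cells, migratory dendritic cells and plasma cells. By DESeq2 these shares were 0.0757% in endothelial cells, 0% in cDC2, 0.0553% in T cells, 0.162% in NK cells, 0.257% in migratory dendritic cells and 0.337% in plasma cells. In cDC2 32 of 36 members were lower (median -0.35, against -0.01 over all genes), with 3 at an unadjusted p under 0.05, against 3.98% of all genes. Ifi27l2a was at 834, 857 and 877 CPM in anti-VSIG4 1, 2 and 3, against 1390.0, 1305 and 1024 CPM in IgG 1, 2 and 3 (-0.53 ± 0.17, edgeR adjusted p = 0.999), Irf7 at 47.8, 35.7 and 62.5 CPM, against 90.4, 64.5 and 75.5 CPM, and Oas1a at 19.0, 39.0 and 55.9 CPM, against 55.9, 60.7 and 61.7 CPM. Ifi27l2a and Irf7, with Ifi204 and Oas2, were lower without overlap after TMM scaling, 4 of 36 against 4.92% of all genes, and 0 were higher, against 4.56%. In endothelial cells 22 of 30 members were lower (median -0.41), with 3 at an unadjusted p under 0.05, against 4.86% of all genes. Rsad2 was at 82.9, 44.2 and 26.3 CPM, against 103, 73.4 and 140.1 CPM (-1.17 ± 0.35, adjusted p = 0.714), Rtp4 at 85.0, 33.5 and 54.2 CPM, against 111, 107 and 94.5 CPM, and Ifitm3 at 3508, 2615 and 3141 CPM, against 3835, 5032 and 4539 CPM; after TMM scaling these 3 were lower without overlap, against 4.71% of all genes, while Rsad2 overlapped in unscaled CPM, and 0 members were higher without overlap, against 4.86%.

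T cells, NK cells, migratory dendritic cells and plasma cells gave 13 of 38, 6 of 22, 11 of 24 and 6 of 10 members lower, with medians of 0.05, 0.12, 0.02 and -0.16. These directions turned in each class: the median was -0.06 in T cells without IgG 3, -0.03 in NK cells without anti-VSIG4 1, -0.16 in migratory dendritic cells without IgG 3 and 0.28 in plasma cells without IgG 1. The members with the smallest p in T cells were Rtp4 (0.56 ± 0.29), Slfn1 (0.35 ± 0.23) and Ifitm3 (0.36 ± 0.31), all higher. In NK cells they were Ifi27l2a (0.65 ± 0.30), Oasl1 (-0.86 ± 0.45) and Rtp4 (0.72 ± 0.39), in migratory dendritic cells Stat2 (-1.01 ± 0.49), Parp14 (-0.67 ± 0.41) and Irf9 (-0.63 ± 0.41, lower without overlap after TMM scaling, 1 of 24 against 7.91% of all genes), and in plasma cells Ifi27l2a (0.74 ± 0.33), Ifitm3 (-0.39 ± 0.29) and Trim30a (-0.47 ± 0.47). Unadjusted p-values under 0.05 were held by 0, 1, 0 and 1 members, against 3.62%, 12%, 9.85% and 8.01% of all genes in these 4 classes. No member was lower without overlap in T cells, NK cells and plasma cells, against 3.77%, 8.79% and 6.06% of all genes. None was higher without overlap in T cells, NK cells, migratory dendritic cells and plasma cells, against 4.47%, 7.91%, 7.58% and 7.81%.

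By gene and whether or not a test passed, Oasl1 was lower in all 10 classes, with changes of -1.68 to -0.15, Stat2 in all 9 and Ifit2 in all 5 in which they were tested, while Slfn1 was higher in 8 of 9. Oas1g in 4, Mx1 in 3 and Ifi44 in 2 classes were also lower wherever tested. The classes share the same 6 libraries, so these are not separate observations.

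The treatment change in 3 classes was tested against that in monocyte/macrophages, with the library as a block. For fibroblasts 33 of 40 members had a more negative change, with a median difference of -0.63 on the log2 scale; edgeR called 0 members, with 0.0151% of all genes called, and 10 had an unadjusted p under 0.05, against 5.08% of all genes. Usp18 (-1.56 ± 0.44, adjusted p = 0.628), Isg15 (-0.89 ± 0.35) and Parp14 (-0.80 ± 0.32) were among them. For tumour/epithelial cells against monocyte/macrophages the median difference was 0.20 and for neutrophils 0.16, with 0 members called in both, against 0% and 0.015% of all genes; 6 members and 1 member had an unadjusted p under 0.05, against 4.96% and 7.26% of all genes. Leaving out 1 library moved these medians to between -0.01 and 0.35 for tumour/epithelial cells and between -0.02 and 0.40 for neutrophils, and that for fibroblasts to between -0.65 and -0.51. Slfn4 was that member in neutrophils (-0.75 ± 0.25) and Slfn5 had the smallest p in tumour/epithelial cells (1.30 ± 0.38).

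Other genes of the pathway were followed in the same fits, from lists that hold no member. In fibroblasts 0 of 25 other interferon-induced genes passed in either direction; 23 were lower and 2 higher, with a median log2 change of -0.46, and of 14 genes of pathway signalling and sensing 10 were lower, with 0 called and a median of -0.17. The transcription factor Irf1 stood at -0.94 ± 0.32 and the chemokine Cxcl10 at -1.17 ± 0.42 in fibroblasts. In monocyte/macrophages 23 of 28 and in tumour/epithelial cells 21 of 27 other interferon-induced genes were lower, with 0 called and medians of -0.13 and -0.24, and in T cells 21 of 27 were higher, with a median of 0.14 and 0 called. Ifnb1 could be tested only in monocyte/macrophages, where it was at -0.97 ± 0.96.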

How the data were processed

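Droplet libraries of 6 tumours were analysed, 3 anti-VSIG4 and 3 IgG. The authors deposited raw UMI counts per gene and cell, made with PISA 1.0 per the file headers; STAR and Seurat 4.11 stand in the submitters' processing notes, and for the genome build and strand setting nothing was given in the sources used here. Cell names are running numbers, so shared cell barcodes could not be counted. Cells with at least 500 UMIs, 300 genes and at most 20% mitochondrial UMIs were kept. With scanpy 1.11.5 and leidenalg 0.10.2, 3000 variable genes without the members gave 40 components and clusters at resolution 1, named from fixed markers of 25 classes. Clusters whose median cell had over 15% of UMIs from genes over 100 kb were called nucleus-like, and 2 clusters best matched by erythroid markers were left unnamed, a rule set after the clusters were seen. A further cluster of 256 cells was left unnamed because its leading genes held more markers of another class. Scrublet called 0 doublets and so did not work; an alternative drops the 6% of cells with the highest scores (2853).

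Counts were summed per library and class and tested with edgeR 4.0.16 (quasi-likelihood, TMM, filterByExpr, Benjamini-Hochberg over all genes, threshold 0.05) in classes with at least 20 cells in every library, with DESeq2 1.42.0 as an alternative. The procedure was tested on simulated data. CPM scale the UMIs of a gene to the total of its class in a library, without TMM unless stated. Values after ± are the SE of the edgeR fits or, where stated, the SD over 3 libraries, and include the spread between mice. Limits for a count of 0 cover counting error only, and 3 counts were taken as the limit that a count of 0 allows. Members, lists and class choices were made with earlier results of these data known. Named were every member, the 3 members with the most module UMIs and in each class the 3 lowest p among those reaching 20 CPM in a group, and the 10 non-member genes most like the module or highest in high cells. Promoters came from RefSeq on GRCm38.p6.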

Additional observations from a re-analysis of the deposited data

How the results depend on the processing

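Replicate numbers are shared by the groups. Same-numbered libraries correlated at -0.23 to -0.02 for number 2 over the 10 classes, against 0.10 to 0.34 for number 1 and 0.13 to 0.38 for number 3. Numbers 1 and 3 pair libraries of the same kind and number 2 libraries of different kinds. These values therefore cannot decide whether same-numbered libraries share more than a name. With the replicate block edgeR called 3 members in fibroblasts (Ifit1, Isg15 and Oasl1, with 32 of 9611 genes called). It called 0 in other classes, where up to 65 genes were called (NK cells). In fibroblasts, against 0 members called, 6 were called without a filter on low counts (168 of 20660 genes called), 1 with the library kind as covariate (12 of 9611), 7 in the nucleus-poor libraries alone (77 of 10397), 5 in the nucleus-rich ones alone (214 of 10669) and 2 by DESeq2, and the median log2 change ran from -1.09 to -0.58 with a library left out. In monocyte/macrophages the median was -0.47 in nucleus-poor libraries alone and 0.03 in nucleus-rich ones alone. Without the filter 2 members were called in tumour/epithelial cells and 1 in endothelial cells. The shares of all genes called in these 2 fits are not given here, so the counts are not read as results about the members. Leaving out a library gave 0 to 2 members in NK cells, where a fit of this kind called 396 genes. In plasma cells it gave 0 to 1 (median -0.33 to 0.28, and 0.50 in nucleus-rich libraries alone), with no share of all genes given here. The tests of tumour/epithelial cells and of neutrophils against monocyte/macrophages gave 0 to 3 members. The highest count came without IgG 1 in each. In these tests 142 of 15093 genes were then called for tumour/epithelial cells and 247 of 13741 for neutrophils. Oas1a and Oas1g in neutrophils changed sign in the nucleus-rich libraries alone (0.060 and 0.30).

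The difference in module share, anti-VSIG4 minus IgG, was -0.231 percentage points in fibroblasts, -0.160 without Ifitm3, Bst2, Ifnar1 and Ifnar2 and -0.154 after thinning; in endothelial cells it was -0.243, and -0.089 without these 4 genes. The difference in high cells was -3.63 points in fibroblasts, -11.4 at 5 UMIs, -0.759 at 20, -7.92 with all members and -9.60 without Isg15 at 5 UMIs, the last chosen after seeing the data; the groups overlapped at 5 and 20 UMIs and without Isg15. In T cells it was -0.356, and -1.26 at 5 UMIs, and in cDC2 -11.9, and -2.33 at 20 UMIs. The cause of these shifts was not tested. Without TMM the median of the members was -0.01 in NK cells, -0.08 in migratory dendritic cells and 0.07 in plasma cells, and with doublet scores removed -0.24 in migratory dendritic cells, against 0.12, 0.02, -0.16 and 0.02 in the reported fits. Of 1261 alternative values, 483 of main results and 644 of single genes or counts of genes were taken as the same. For medians and shares this meant a shift below the replicate spread, whatever the sign, so values that changed sign are among them. For single genes it meant the same sign and side of the threshold, and for counts a change of at most 1.5 times. Another 17 and 80 newly passed the threshold or rose from 0. Beyond the replicate spread or by over 1.5 times moved 13 and 13. Counts of all genes called fell to 0 in 9 values, and single genes changed sign in 2. Fibroblasts of anti-VSIG4 3 rest on 54 cells, which limits what a single library shows.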
